A study of Mus musculus with 2 samples.

Results

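Endothelial cells line the inside of blood vessels, and those described here came from the hindlimbs of mouse embryos. They were selected on 3 endothelial genes: Cdh5 (VE-cadherin, the adhesion molecule of endothelial junctions), Pecam1 (CD31, another junction molecule) and Kdr (VEGF receptor 2). A barcode was a member when these genes together held at least 5 unique molecular identifiers (UMIs, each 1 captured RNA molecule), with at least 1 from Cdh5. Barcodes also needed at least 1000 detected genes, at most 10% mitochondrial UMIs, under 5% globin UMIs and no UMI of Epcam, Lbx1 or Csf1r, which mark ectoderm, migrating muscle precursors and macrophages. This gave 255 members among the 24473 barcodes that passed the gene and mitochondrial filters (kept barcodes).

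The series measured RNA in single cells of FVB hindlimbs at E11.5 (days after conception) from dual-reporter knock-in embryos, with 1 droplet library per construct. The dual-enSERT-2 library (genotype at H11: B-ZRS-mCherry, then SI, then ZRS404G>A-eGFP-B) held 58 members among 6683 kept barcodes, or 0.868% (exact binomial 95% interval 0.660 to 1.12). The dual-enSERT-1 library (genotype H11_ZRS-mCherry/ZRS404G>A-GFP) held 197 among 17790, or 1.11% (0.959 to 1.27). Both constructs sat at the H11 safe-harbour locus and used the ZRS, the limb enhancer of Sonic hedgehog, with the reference sequence driving mCherry and the 404G>A variant driving eGFP. No library without a reporter was analysed here, the labels do not state how many embryos each library pooled, and what the letters B and SI stand for is not spelled out. With 1 library per construct there is no replicate and no test between libraries: construct, embryo and preparation cannot be told apart. All intervals below cover counting error only, and cells of 1 library are not replicates.

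Blood vessels of the early limb grow as a plexus that is remodelled into arteries, capillaries and veins. VEGF, made by surrounding tissue, acts on endothelial cells through its receptors Kdr, Flt1 and Flt4, while Notch signalling between neighbouring endothelial cells favours arterial identity and the nuclear receptor Nr2f2 (COUP-TFII) favours venous identity. Many endothelial genes are driven by transcription factors of the ETS family, which bind DNA around a GGAA core, and by SoxF factors.

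The promoters below belong to endothelial genes whose levels are reported next, and show where an ETS-type motif lies in genes that were high together. They are the 250 bases upstream of the annotated start, from RefSeq on GRCm38.p6, written 5′ to 3′ on the gene's strand, with AGGAAG or its reverse complement CTTCCT in capitals. Emcn encodes endomucin, Tie1 an angiopoietin co-receptor, Flt1 VEGF receptor 1, Eng the BMP co-receptor endoglin, and Kdr, which has no match in this window, VEGF receptor 2.
Emcn (chr3:137340828-137341077, plus strand): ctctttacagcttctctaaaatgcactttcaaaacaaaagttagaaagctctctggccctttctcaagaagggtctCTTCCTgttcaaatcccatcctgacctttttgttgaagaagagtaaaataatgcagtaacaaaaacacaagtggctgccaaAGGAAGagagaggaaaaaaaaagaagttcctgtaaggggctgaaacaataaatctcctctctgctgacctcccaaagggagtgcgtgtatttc
Tie1 (chr4:118489850-118490099, minus strand): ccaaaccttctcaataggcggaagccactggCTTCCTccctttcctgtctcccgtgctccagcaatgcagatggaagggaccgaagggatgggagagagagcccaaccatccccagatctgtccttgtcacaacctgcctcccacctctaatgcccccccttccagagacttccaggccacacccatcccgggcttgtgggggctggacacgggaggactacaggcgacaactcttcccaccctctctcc
Flt1 (chr5:147726012-147726261, minus strand): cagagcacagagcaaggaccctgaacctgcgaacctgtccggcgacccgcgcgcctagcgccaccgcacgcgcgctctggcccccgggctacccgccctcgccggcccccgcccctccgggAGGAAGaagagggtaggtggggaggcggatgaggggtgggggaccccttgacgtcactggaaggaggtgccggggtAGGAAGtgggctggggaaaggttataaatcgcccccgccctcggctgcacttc
Eng (chr2:32646345-32646594, plus strand): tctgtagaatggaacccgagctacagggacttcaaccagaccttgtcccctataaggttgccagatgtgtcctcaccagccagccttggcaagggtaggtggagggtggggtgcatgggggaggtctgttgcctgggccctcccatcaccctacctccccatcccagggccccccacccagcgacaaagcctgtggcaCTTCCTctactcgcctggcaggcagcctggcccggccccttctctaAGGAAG
Kdr (chr5:75978456-75978705, minus strand): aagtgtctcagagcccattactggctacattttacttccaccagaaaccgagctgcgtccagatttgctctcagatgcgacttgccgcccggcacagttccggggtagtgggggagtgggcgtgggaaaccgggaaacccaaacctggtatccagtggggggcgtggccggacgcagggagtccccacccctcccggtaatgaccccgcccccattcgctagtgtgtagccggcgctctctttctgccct
The 34 genes of a general endothelial list had 18 members in the promoter table, with 20 promoters between them. Promoters in that table are longer than the stretches printed above, which hold only the 250 bases before the start. AGGAAG was present on either strand in 14 of these 20 promoters (70.0%), beside 9686 of all 32851 promoters of the same length (29.5%). The Sox-type motif ACAATG, also read on both strands and sharing no overlap with AGGAAG, was in 0 of the 20, beside 3512 of 32851 (10.7%). A match describes the letters only and is not a binding site.

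Genes of a general endothelial list that the selection did not use were also higher in members in both libraries. Levels are CPM, the pooled UMIs of a gene per 1000000 pooled UMIs of the same cells, and a gene was called higher or lower where its level differed at least 2-fold in the same direction in both libraries. Of 7297 genes that reached 20 CPM in either cell group of both libraries, 955 (13.1%) were called higher and 405 (5.55%) lower in members than in the other kept barcodes. Since the members were selected by expression, this contrast describes them and has no test. The make-up of the other barcodes differed between libraries. Erythroid-marker barcodes (at least 20% globin UMIs, no Cdh5) made up 1773 of 6683 kept barcodes in dual-enSERT-2 and 309 of 17790 in dual-enSERT-1. A gene that is very low in other barcodes passes the minimum only through its level in members, and is then called higher. Counts of called genes in the lists here and below are therefore description only. Leaving out the 3 selecting genes, 30 of the 30 measured genes of the general endothelial list were called higher, with a median log2 difference of 6.11 in dual-enSERT-2 and 5.98 in dual-enSERT-1, beside 0.20 and -0.09 over all genes. Vwf, the clotting protein von Willebrand factor, was the 1 list gene under the minimum, at 18.0 and 16.8 CPM.

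Emcn and Tek, endothelial markers that the selection did not use, were high in members and low in the other barcodes. Emcn, a surface sialomucin of endothelium, had 651 CPM in dual-enSERT-2 members, against 2.70 CPM in other barcodes (241-fold, interval 217 to 268), and 522 CPM in dual-enSERT-1 members, against 1.83 CPM (286-fold, 260 to 314). An Emcn UMI was present in 57 of 58 and 191 of 197 members. Tek (Tie2, the angiopoietin receptor) had 120 and 128 CPM in members, against 1.31 and 1.47 CPM in other barcodes, a 91.2-fold (75.8 to 110) and 87.5-fold (77.8 to 98.6) difference. The selecting genes themselves, given only as description, had 608 and 605 CPM for Cdh5, 516 and 609 CPM for Pecam1, and 653 and 607 CPM for Kdr.

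**Figure D1:**
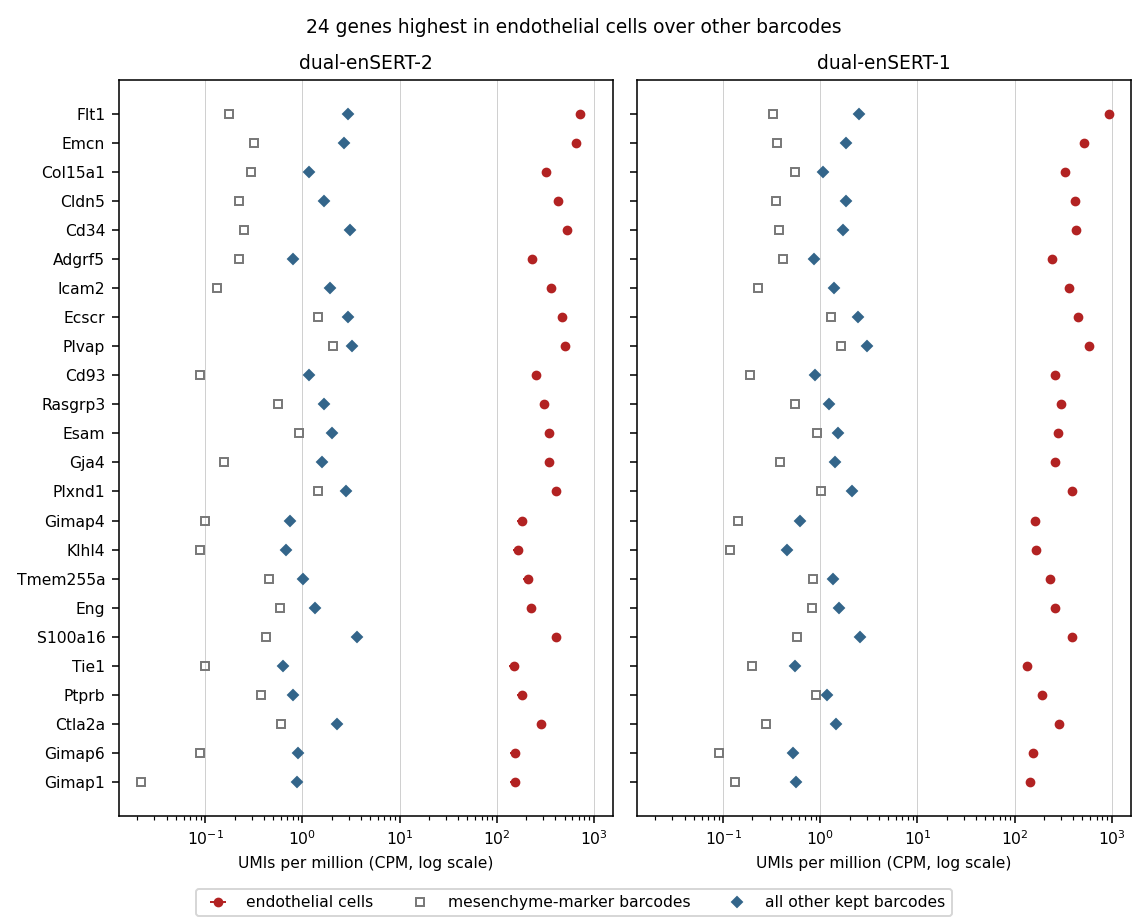
Pooled level (CPM, log axis) of the 24 genes ranked highest in members over other kept barcodes, with dual-enSERT-2 in the left panel and dual-enSERT-1 in the right. Red circles are endothelial members, open squares mesenchyme-marker barcodes and blue diamonds all other kept barcodes; in each panel the circles lie far to the right, as for Flt1 at 715 and 932 CPM against 2.92 and 2.49 CPM in other barcodes.

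The 24 genes with the largest difference had a log2 difference of 6.35 to 7.51 in the library where each was smaller. Flt1, a VEGF receptor that also acts as a decoy, had 715 and 932 CPM in members, against 2.92 and 2.49 CPM in other barcodes (245-fold, 222 to 272, and 375-fold, 347 to 406). Cldn5, the main claudin of endothelial tight junctions, had 430 and 419 CPM in members and was 260- and 228-fold higher than in other barcodes. Plvap, which forms the diaphragms of permeable capillaries, had 500 and 588 CPM and was 155- and 193-fold higher. Col15a1 (a basement membrane collagen), Cd34, Adgrf5, Icam2, Ecscr, Cd93, Rasgrp3, Esam, Gja4, Plxnd1, Klhl4, Tmem255a, Eng, S100a16, Tie1, Ptprb, Ctla2a and the GTPases Gimap1, Gimap4 and Gimap6 made up the rest. Gimap genes are a family of similar neighbours, so reads could be split among them. Both the progenitor marker Cd34 and the scavenger receptor Stab1 were also present in macrophage-marker barcodes (at least 10 UMIs of 6 macrophage genes, no Cdh5). Cd34 had 534 and 433 CPM in members, beside 100 and 37.4 CPM in those barcodes, and Stab1 had 102 and 91.7 CPM in members, beside 147 and 170 CPM.

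Among VEGF receptors other than the selecting gene Kdr, 3 of 4 were called higher, beside 13.1% over all genes. They were Flt1, Flt4 (VEGF receptor 3, which binds VEGF-C, at 111 and 111 CPM in members) and the co-receptor Nrp1 (459 and 421 CPM). The remaining gene, the VEGF-C co-receptor Nrp2, differed in opposite directions, with 126 and 190 CPM in members, against 26.5 and 256 CPM in other barcodes. Of the ligands, Vegfc was higher in members at 182 and 207 CPM, against 16.0 and 21.3 CPM in other barcodes (11.4- and 9.74-fold). Vegfa had only 1.5 and 5.55 CPM in members, against 10.8 and 18.3 CPM in other barcodes. The angiopoietin and Tie list had 3 of 3 measured genes higher, with Tie1 at 150 and 136 CPM in members; Angpt2, a Tie2 ligand released by endothelium, was below the minimum at 4.01 and 6.47 CPM.

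Many transcription factors of the endothelial programme were also called higher in members. The ETS family had 7 of 13 measured genes called higher, 1 lower and 5 in neither direction, beside 13.1% higher and 5.55% lower over all genes. Erg, an ETS factor that maintains endothelial identity, had 88.7 and 110 CPM in members and was 23.9- and 16.9-fold higher than in other barcodes; Fli1 had 364 and 424 CPM (3.95- and 2.76-fold) and Ets1 397 and 376 CPM (16.9- and 11.6-fold). Etv5, a target of FGF signalling, was the gene called lower, with 19.0 and 15.7 CPM in members, against 48.0 and 41.0 CPM in other barcodes. Etv2, which starts endothelial commitment earlier in development, had 0 and 2 UMIs over all members. A list of 22 other endothelial transcription factors had 16 measured, of which 12 were higher and 0 lower, among them the SoxF factors Sox7 (87.7 and 89.4 CPM in members) and Sox17 (105 and 122 CPM), the flow-induced Klf2 (175 and 285 CPM) and the hypoxia-response factor Epas1 (161 and 176 CPM). Tal1, a factor shared by blood and endothelium, was similar in members of both libraries, at 36.1 and 45.9 CPM. Its direction was split through the other barcodes, which had 61.3 and 3.12 CPM. Erythroid-marker barcodes were a larger share of these in dual-enSERT-2, and their part in this split was not tested.

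Signalling lists differed in how many genes were called, beside 13.1% higher and 5.55% lower over all genes. The Notch list had 5 of 6 measured genes (of 12 listed) called higher, with the receptors Notch1 at 209 and 203 CPM and Notch4 at 83.7 and 68.4 CPM and the ligand Dll4 at 72.2 and 74.4 CPM in members. The BMP and TGF-β list had 5 of 11 measured genes higher (Eng, the receptors Acvrl1 and Tgfbr2, Tgfb1 and the target Id3 at 891 and 737 CPM) and 5 in neither direction; 1 was lower, the target Id2, with 29.1 and 56.2 CPM in members, against 84.7 and 143 CPM in other barcodes. Genes of flow sensing were 5 of 5 measured higher, including the channel Piezo1 (121 and 116 CPM) and the nitric oxide synthase Nos3 (60.6 and 66.7 CPM). For the apelin and chemokine axis, the ligand Apln and its receptor Aplnr were higher, while the chemokine Cxcl12 was lower, at 2.0 and 8.78 CPM in members, against 24.8 and 47.8 CPM in other barcodes. Basement membrane genes were 11 of 12 measured higher, with Col4a1 (collagen IV) at 985 and 1307 CPM in members. Slc2a1, the glucose transporter GLUT1 that marks barrier endothelium, had 272 and 263 CPM in members, against 39.4 and 38.1 CPM in other barcodes, whereas the brain-barrier lipid transporter Mfsd2a had 0 and 5 UMIs.

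Markers of specialised vessels differed among themselves. Tip-cell genes, which mark the cells that lead vessel sprouts, were 8 of 8 measured higher, among them Apln (56.1 and 67.8 CPM in members), Esm1 (49.6 and 53.6 CPM), Kcne3 (148 and 307 CPM) and Igfbp3 (294 and 476 CPM). Of lymphatic genes, Flt4, Mmrn1 and Itga9 passed the minimum and were higher, but the defining factor Prox1 had 2.51 and 12.2 CPM and the hyaluronan receptor Lyve1 had 1 and 8 UMIs. In dual-enSERT-1, 1 member held 51 of the 79 Prox1 UMIs, together with 32 Flt4 and 23 Nr2f2 UMIs, and without it the Prox1 level was 4.37 CPM. Of proliferation genes, 0 of 10 in S phase and 0 of 10 in G2/M were called in either direction, beside 13.1% higher and 5.55% lower over all genes, with summed S-phase levels of 1282 and 1030 CPM in members, against 1373 and 1363 CPM in other barcodes.

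Genes lower in members included those of a limb mesenchyme list, while the globins, also lower, were limited in members by the selection itself. The 10 with the largest difference included Fgf8, the growth factor of the limb's apical ridge, with 1.5 and 1.08 CPM in members, against 40.9 and 21.3 CPM in other barcodes. Ptn, a secreted heparin-binding growth factor, had 60.6 and 72.6 CPM in members, against 536 and 575 CPM, and the netrin receptor Unc5c had 10.5 and 23.4 CPM, against 103 and 244 CPM. The remaining 7 were Zic2, Pmaip1, A630012P03Rik, Crabp2, Vcan, Msi1 and Dixdc1. All 8 genes of a mesenchyme list and 8 of 8 measured limb patterning genes were lower, beside 5.55% lower over all genes. Tbx4 and Pitx1 were in both of these lists. A gene that is very low in members passes the minimum only through the other barcodes, and is then called lower. Of measured hedgehog genes, 3 of 4 were lower, with the hedgehog receptor Ptch1 at 50.1 and 49.0 CPM in members, against 104 and 137 CPM.

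RNA of other cell types was present in members at measurable levels. The 8 mesenchyme markers summed to 277 and 298 CPM in members, against 2214 and 2541 CPM in mesenchyme-marker barcodes (at least 5 UMIs of Prrx1, Prrx2 and Twist1 together and none of the selecting genes), and none of the 8 was at 0. In 34 and 100 members, no UMI of Prrx1, Prrx2 or Twist1 was found. The sum in those members was 32.0 and 30.8 CPM, with these 3 of the 8 markers at 0 by that choice. The 10 globin and erythroid markers summed to 2378 and 274 CPM in members, beside 2495 and 310 CPM in mesenchyme-marker barcodes. Both groups were limited to barcodes with under 5% globin UMIs, so their likeness can be set in part by the selection. Macrophage markers summed to 6.51 and 9.86 CPM in members; Csf1r was at 0 by the selection, and of the other 8 genes 5 and 2 were at 0, and the pan-leukocyte gene Ptprc was at 0 in all members. Ectoderm, muscle and neural crest lists, of which Epcam and Lbx1 were at 0 by the selection, each summed to 5.55 CPM or less, and 12 mural markers to 25.6 and 31.7 CPM, against 120 and 125 CPM in mesenchyme-marker barcodes. A doublet caller, Scrublet, marked 3 members (5.17%) in dual-enSERT-2 and 33 (16.8%) in dual-enSERT-1, against 3.43% and 9.61% of kept barcodes; these members were retained. How far such RNA enters the levels above was not tested beyond the values given here without the mesenchyme-positive members.

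The rule's threshold cut through few cells. Members had a median of 46.5 selecting UMIs (5 to 217) in dual-enSERT-2 and 39 (5 to 386) in dual-enSERT-1. The 3 and 13 members with 5 to 9 selecting UMIs had 1727 and 1125 CPM for Tek, Emcn, Flt1, Cldn5 and Plvap together, and the 8 and 10 barcodes just outside, with 3 or 4 selecting UMIs, had 649 and 857 CPM. Members further inside, with 10 or more, had 2421 and 2614 CPM. Median depth was 23601 and 22540 UMIs per member, against 26149 and 14745.5 UMIs per kept barcode, and the 2 libraries shared 49 deposited barcodes, none of them a member.

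Hox genes, which record position along the body and limb axes, separated endothelium from mesenchyme of the same hindlimbs by cluster. The Hoxb1 to Hoxb9 genes lie on chromosome 11 between 96162150 (Hoxb9) and 96259082 (Hoxb1) on the plus strand of GRCm39. The cluster, in which Hoxb1 and Hoxb13 had 0 UMIs, summed to 174 CPM (Poisson 95% interval 156 to 193) in dual-enSERT-2 members, against 12.2 CPM in mesenchyme-marker barcodes, and to 206 CPM (195 to 217) in dual-enSERT-1 members, against 6.49 CPM. A Hoxb UMI was found in 55 of 58 and 174 of 197 members. The other clusters ran the opposite way: Hoxa summed to 184 and 173 CPM in members, against 647 and 679 CPM in mesenchyme, Hoxc to 40.6 and 44.4 CPM, against 314 and 279 CPM, and Hoxd to 70.2 and 92.5 CPM, against 356 and 443 CPM. Macrophage-marker barcodes had 12.4 and 5.18 CPM of Hoxb.

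**Figure D2:**
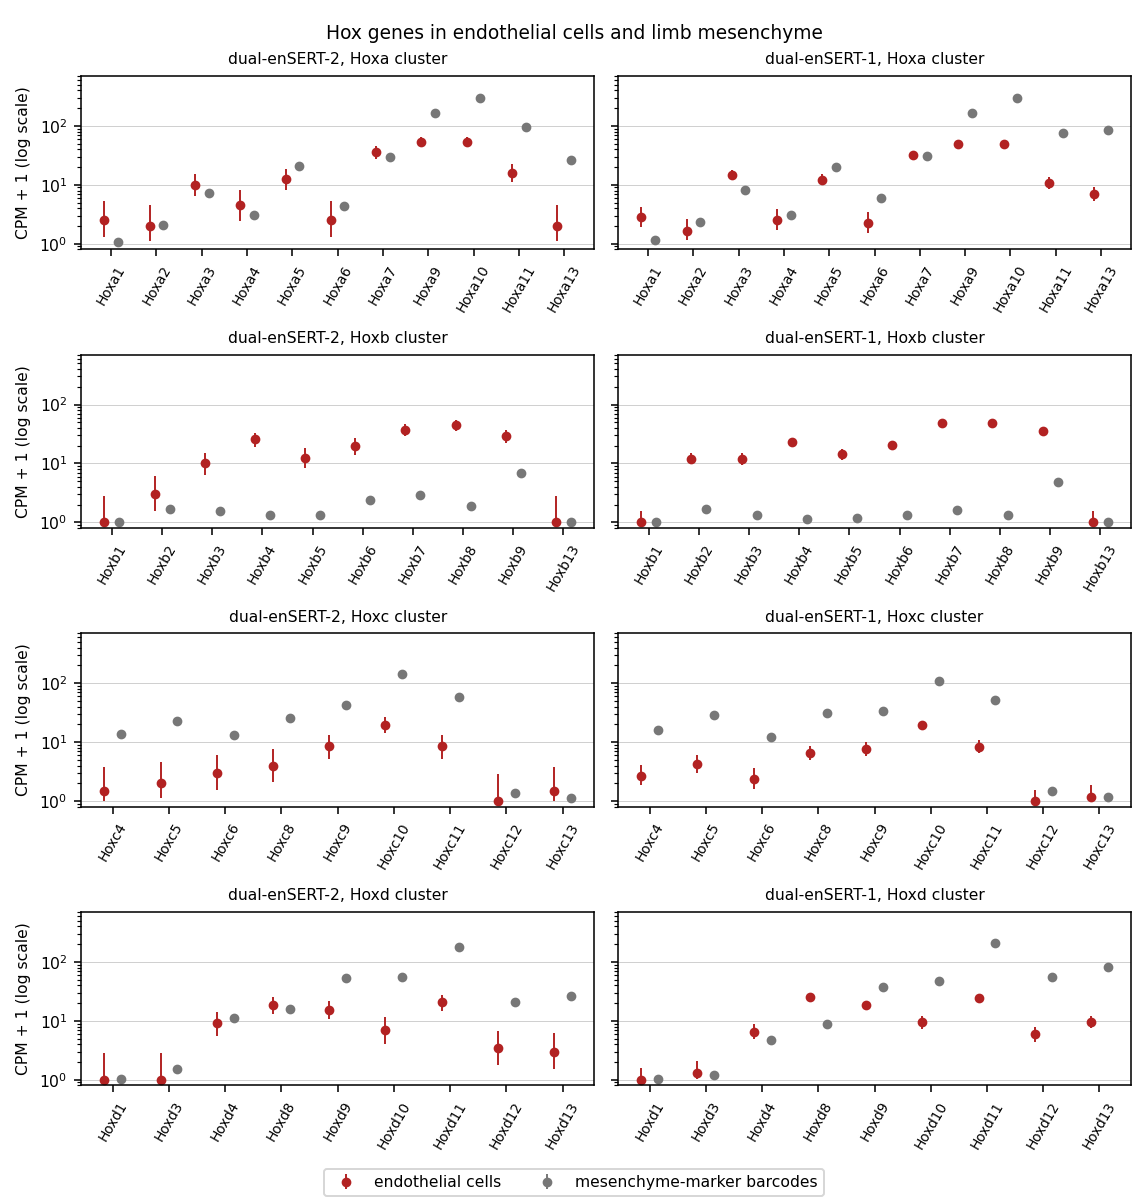
Level of each single Hox gene (CPM + 1, log axis) in endothelial members and, to their right, mesenchyme-marker barcodes. Each cluster has a row of panels and each library a column, and bars are exact Poisson 95% intervals. Cluster sums are not drawn. Summed over its genes, Hoxb was higher in endothelium (174 and 206 CPM, against 12.2 and 6.49 CPM), while the sums of Hoxa, Hoxc and Hoxd were higher in mesenchyme.

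Within the cluster, levels were spread from Hoxb2 to Hoxb9 and 4 genes had enough UMIs to be called, Hoxb4, Hoxb7, Hoxb8 and Hoxb9. Hoxb4 (chromosome 11, 96209093 to 96212464) had 24.6 and 22.2 CPM in members, against 0.352 and 0.126 CPM in mesenchyme, or 69.7-fold (43.7 to 112) and 176-fold (114 to 280) higher. Hoxb8 (chromosome 11, 96172731 to 96176160) had 43.6 and 47.2 CPM, against 0.914 and 0.323 CPM, or 47.7-fold (34.9 to 65.2) and 146-fold (111 to 194) higher. Hoxb7 had 36.6 and 47.3 CPM in members (18.9- and 78.7-fold higher), and Hoxb9, next towards the posterior end of the cluster, 28.1 and 34.5 CPM, against 6.01 and 3.88 CPM (4.67- and 8.91-fold). Transcripts within a Hox cluster overlap, so the count of a single gene may hold reads of its neighbour; the cluster sums are less exposed to this.

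Detection per cell gave the same order for Hoxb8. With each cell thinned to 5000 UMIs (56 and 192 members deep enough, 2 and 5 left out), a Hoxb8 UMI was found in 14.3% and 9.90% of members, against 0.415% and 0% of 964 and 972 mesenchyme barcodes; unthinned, the shares were 56.9% and 55.8%, against 3.0% and 0.5%. Hoxb7 was found in 7.14% and 20.3% of thinned members, against 0.519% and 0.103% of mesenchyme. Hoxd11, a gene of the distal limb, went the other way, in 7.14% and 8.85% of thinned members, against 48.5% and 52.1% of mesenchyme.

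The remaining Hox clusters held both shared and mesenchymal genes. Hoxa7 had 34.6 and 30.5 CPM in members, beside 28.7 and 29.5 CPM in mesenchyme, and Hoxd8 had 17.5 and 24 CPM, beside 15.2 and 7.89 CPM. Hoxa10 had 53.1 and 48.5 CPM in members, against 299 and 293 CPM in mesenchyme, and Hoxd11 had 19.5 and 23.0 CPM, against 178 and 211 CPM. Hoxd13, the most distal of the limb Hox genes, had 2.0 and 8.63 CPM in members, against 25.6 and 82.4 CPM. In the members without any Prrx1, Prrx2 or Twist1 UMI, Hoxb stayed at 193 and 217 CPM, while Hoxc was at 9.13 and 7.05 CPM, Hoxd11 at 3.42 and 4.85 CPM and Hoxa10 at 22.8 and 23.8 CPM. Against all other kept barcodes, 4 of 14 measured Hox genes, all in the Hoxb cluster, were called higher in members. The Hoxa, Hoxc and Hoxd clusters had 8 genes called lower, and over all genes 13.1% were called higher and 5.55% lower.

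The members spread along an arterial to venous axis. Each cell was placed by its UMIs of 6 arterial genes (Gja4, Dll4, Efnb2, Hey1, Sox17, Unc5b) and 6 venous genes (Nr2f2, Aplnr, Ephb4, Nrp2, Flt4, Dab2), on the side with more UMIs and at least 2. In dual-enSERT-2, 29 of 58 members (50%, interval 36.6 to 63.4) were placed on the arterial side and 27 on the venous side; in dual-enSERT-1, 93 of 197 (47.2%, 40.1 to 54.4) and 97 did. The axis was graded: 48 and 166 members held at least 2 UMIs of both lists, and 2 and 8 members differed by a single UMI. The sides are therefore ranges of an index and not vessel types, and the index genes are description only. Gja4 (connexin 37), the index gene furthest apart, had 750 and 628 CPM on the arterial side, against 28.9 and 17.3 CPM on the venous side, whereas Ephb4, the venous ephrin receptor, had 73.3 and 81.2 CPM, against 81.2 and 65.1 CPM.

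**Figure D3:**
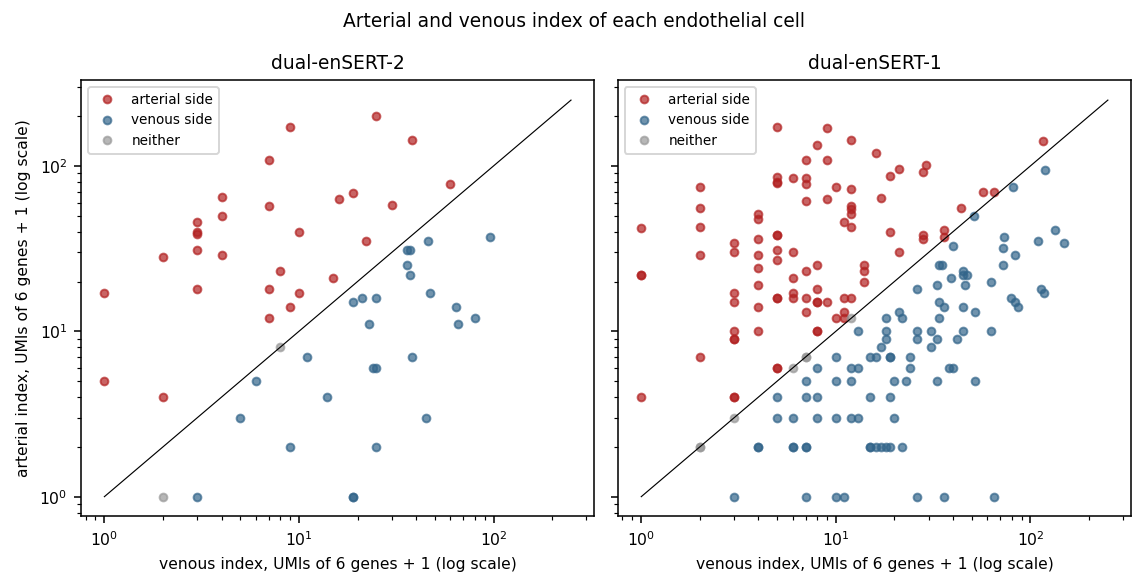
UMIs of the 6 arterial genes (vertical axis) against UMIs of the 6 venous genes (horizontal axis) in each member, both plus 1 on log axes, by library; the line marks equality. Members spread on both sides of the line without a gap, and 48 and 166 members hold at least 2 UMIs of each list.

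Outside the index genes, 6958 genes reached 20 CPM on either side in both libraries; 111 (1.6%) were called higher and 46 (0.661%) lower on the arterial side. Gja5 (connexin 40, the gap-junction protein of arteries; chromosome 3, 96812009 to 96984732) had 134 and 134 CPM on the arterial side, against 0 and 0.261 CPM on the venous side. That is at least 49.5-fold higher in dual-enSERT-2, against a floor of 3 UMIs for the venous side as a whole, and 513-fold in dual-enSERT-1 (347 UMIs against 1, with a lower interval bound of 91.6). In cells thinned to 5000 UMIs, Gja5 was found in 32.1% and 41.3% of arterial-side members, against 0% of the venous side in both libraries and 0.311% and 0.309% of mesenchyme barcodes; unthinned, the arterial-side shares were 55.2% and 58.1%, and the venous-side shares 0% and 1.03%. Of the arterial genes kept out of the index, 6 of 7 measured were called higher and 0 lower. Cxcr4, the receptor of Cxcl12, had 26.3 and 38.3 CPM on the arterial side, against 4.51 and 2.88 CPM, and the secreted guidance cue Sema3g had 54.9 and 55.3 CPM, against 10.8 and 10.2 CPM. Notch4 (2.47- and 2.18-fold), the Notch ligand Jag2 (3.62- and 2.73-fold) and Nrp1 (2.15- and 2.28-fold) completed the 6.

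The genes that ranked next on the arterial side had varied roles. Dkk2, a secreted modulator of Wnt signalling, had 71.0 and 116 CPM on the arterial side, against 0 and 2.35 CPM on the venous side (at least 26.2-fold, and 49.3-fold with an interval of 25.6 to 109). Hes5, a Notch target, had 46.9 and 22.1 CPM, against 0 and 0.261 CPM, with 1 venous-side UMI in dual-enSERT-1 (84.3-fold, lower interval bound 14.5) and at least 17.3-fold in dual-enSERT-2. Stmn2, a regulator of microtubules best known in neurons, had 269 and 289 CPM, against 14.4 and 25.6 CPM (18.6-fold, 11.2 to 33.1, and 11.3-fold, 9.12 to 14.1). Apoe, the lipid-carrier apolipoprotein E, had 444 and 486 CPM, against 55.0 and 51.5 CPM (8.07-fold, 6.15 to 10.7, and 9.44-fold, 8.12 to 11). The transcription factors Sox6 (10.9- and 8.65-fold) and Gata6 (7.29- and 8.24-fold), the natriuretic peptide clearance receptor Npr3 (5.99- and 9.77-fold), the transporter gene Slc45a4 (27.9- and 19.6-fold) and Ssu2 followed. Prss23, a serine protease gene, was also among the 12 named here, but in the members without any mesenchyme-marker UMI its log2 difference was -0.24 in dual-enSERT-2.

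**Figure D4:**
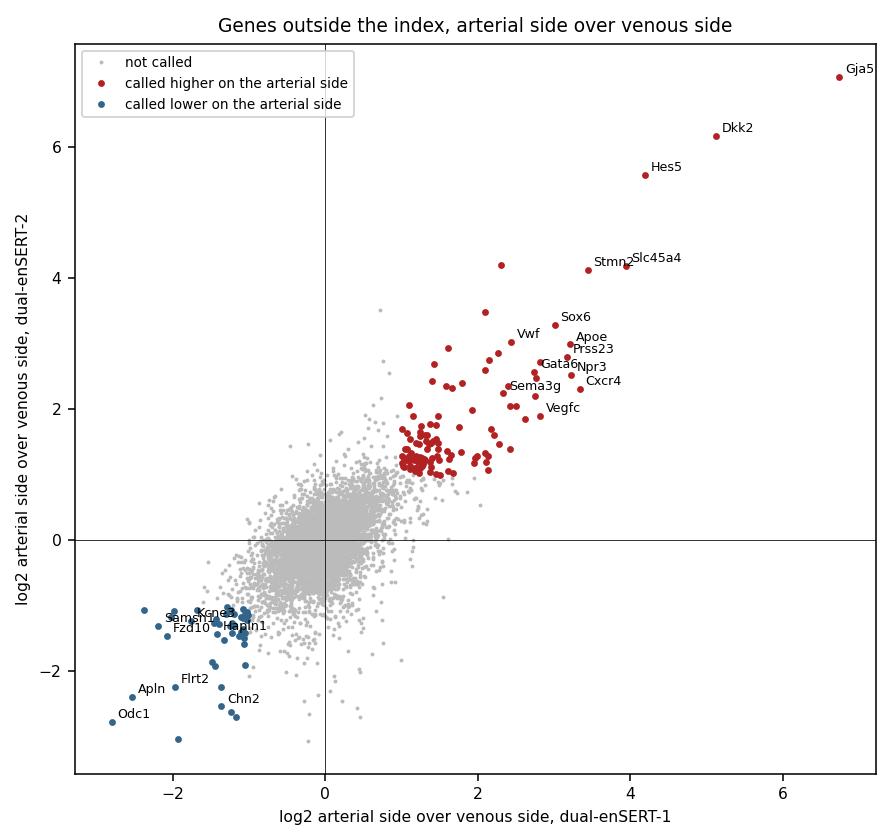
Log2 difference of each measured gene, arterial over venous side, in dual-enSERT-2 (vertical axis) and dual-enSERT-1 (horizontal axis), on pooled CPM with 1 CPM added. Red points are the 111 genes called higher on the arterial side and blue points the 46 called lower, and Gja5 and Dkk2 stand at the arterial end in both libraries.

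Of the 46 genes higher on the venous side, Odc1 and Apln were among the furthest apart. Odc1, ornithine decarboxylase, the rate-limiting enzyme of polyamine synthesis (chromosome 12, 17594383 to 17601507), had 48.1 and 72.4 CPM on the arterial side, against 336 and 510 CPM on the venous side, or 6.98-fold (5.07 to 9.85) and 7.05-fold (6.07 to 8.24) higher in venous-side members. Sat1, which breaks polyamines down, was called in the opposite direction and was 6.65- and 7.13-fold higher on the arterial side. Apln, the apelin ligand (chromosome X, 47114019 to 47123775), had 16.0 and 17.0 CPM on the arterial side, against 88.4 and 104 CPM on the venous side; thinned, it was found in 7.14% and 5.43% of arterial-side members, against 29.6% and 34.7% of venous-side members. Flrt2, an adhesion protein that binds Unc5 receptors, had 22.9 and 20.5 CPM, against 112 and 83.2 CPM. Arhgap6, Fzd10 (a Wnt receptor), Ccne2 (cyclin E2), Hapln1 (which links hyaluronan to proteoglycans), Chn2, Pvt1, Adgrg3 and Samsn1 were also called higher on the venous side.

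Gene lists were divided between the sides in part. Tip-cell genes split, with Igfbp3 (468 and 701 CPM on the arterial side, against 160 and 323 CPM) and Cxcr4 higher on the arterial side, and Apln and Kcne3 (83.6 and 124 CPM, against 199 and 422 CPM) higher on the venous side, of 8 measured. Vegfc, the ligand of Flt4, had 302 and 431 CPM on the arterial side, against 80.3 and 60.1 CPM on the venous side (3.76- and 7.17-fold). Vwf, placed on the venous list as a gene of adult veins, was 10.1- and 6.20-fold higher on the arterial side. Among endothelial transcription factors 2 of 14 were higher on the arterial side, Sox7 (161 and 157 CPM, against 29.8 and 44.7 CPM) and Epas1 (2.20- and 2.18-fold), and none was lower. Mecom, an arterial regulator, had 615 and 818 CPM, against 465 and 334 CPM, and was not called because its difference was 1.32-fold in dual-enSERT-2. In the ETS and Hox lists 0 of 12 measured genes each were called, which with 1.6% and 0.661% called over all genes says little of these lists. Hoxb summed to 199 and 203 CPM on the arterial side, against 153 and 207 CPM on the venous side.

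None of 10 S-phase and none of 10 G2/M genes was called between the sides, beside 1.6% higher and 0.661% lower over all genes. Summed over its genes, the S-phase list came to 0.713 (0.656 to 0.773) and 0.585 (0.554 to 0.617) times as much on the arterial as on the venous side. The G2/M list gave ratios of 1.09 (1.03 to 1.16) and 0.678 (0.654 to 0.703), which lie in opposite directions, and the log2 difference in dual-enSERT-2 was -0.062 without members holding 3 or more mesenchyme-marker UMIs. Among genes chosen after their values were seen, the cell-cycle inhibitor Cdkn1c had 1512 and 1616 CPM on the arterial side, against 380 and 424 CPM (3.98- and 3.81-fold), and Ccnd1 (cyclin D1) was 0.599 and 0.467 times, and Myc 0.159 and 0.221 times, as high on the arterial as on the venous side. Median depth was 22025 and 20365 UMIs on the arterial side and 29703 and 27881 UMIs on the venous side. The mesenchyme markers summed to 197 and 325 CPM on the arterial side, against 343 and 283 CPM on the venous side, so the side with more of this RNA was not the same in both libraries. The part of depth and of this RNA in these differences was not tested. With the upper and lower tertile of members by index instead of the sides, 190 genes were called higher and 153 lower.

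Between the libraries, endothelial cells differed at least 2-fold in few genes. Of 7226 genes with at least 20 CPM in members of either library, 34 (0.471%) were at least 2-fold higher and 53 (0.733%) at least 2-fold lower in dual-enSERT-2 than in dual-enSERT-1, with a median log2 difference of 0.06. The general endothelial list had 0 of 33 genes higher and 1 lower, with a median log2 difference of 0.04. Members thinned to 5000 UMIs gave 320 and 315, and the 34 and 100 members without any mesenchyme-marker UMI, which also differ in cell number, gave 101 and 96. Ratios in the other kept barcodes are given beside some genes below. Those barcodes held a larger share of erythroid-marker barcodes in dual-enSERT-2. Their ratios therefore mix cell make-up with library difference, and the part of each was not tested.

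Among genes higher in dual-enSERT-2 members, the globins Hbb-bh1 (121 CPM, against 5.55 CPM), Hba-x, Hbb-y, Hba-a1, Hba-a2 and Hbb-bs moved with the globin level of the whole library, and some of these copies are nearly identical in sequence. Camk1d, a calmodulin-dependent kinase gene, had 1406 CPM in dual-enSERT-2 members, against 97.2 CPM in dual-enSERT-1 members (14.5-fold, 13.2 to 15.8), while the same ratio in other kept barcodes was 3.26. The ribosomal-RNA-like genes Rn18s-rs5 (5.77-fold) and Gm15564 (7.36-fold) and Lars2 (5.31-fold) had ratios of 3.49, 7.47 and 4.52 in other barcodes. Stab2, the scavenger and hyaluronan receptor of sinusoidal endothelium, was 3.83-fold higher (2.84 to 5.17; 50.1 CPM, against 13.1 CPM), beside a ratio of 0.686 in other barcodes, but 1 of 58 dual-enSERT-2 members held 33 of its 100 UMIs. Without that member its level was 34.3 CPM. A second member held 21 of the 100, and Scrublet marked it as a doublet. It also held 94 UMIs of Prrx1, Prrx2 and Twist1. The level without both members was not computed.

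**Figure D5:**
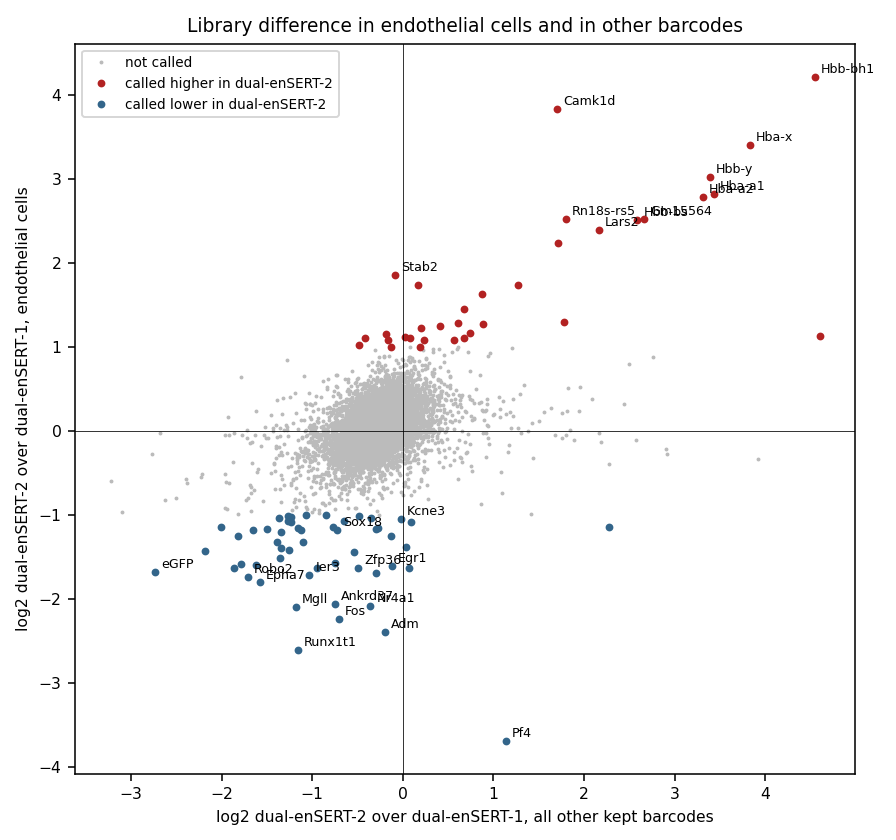
Log2 difference of each gene, dual-enSERT-2 over dual-enSERT-1, in endothelial members (vertical axis) and in the other kept barcodes (horizontal axis), on pooled CPM with 1 CPM added. Globins lie high on both axes, whereas Camk1d and Stab2 lie higher in members than in the other barcodes, with a Camk1d ratio of 14.5 in members and 3.26 in the rest. The other barcodes held a larger share of erythroid-marker barcodes in dual-enSERT-2 (1773 of 6683 kept barcodes, against 309 of 17790).

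Genes lower in dual-enSERT-2 members were led by Pf4, the platelet factor 4 gene, at 9.02 CPM, against 128 CPM in dual-enSERT-1 members. In dual-enSERT-2, 1 member held 13 of the 18 Pf4 UMIs, and without it the level was 2.52 CPM. In dual-enSERT-1, 1 member held 726 of the 833, and without it the level was 16.7 CPM. Of a dissociation-stress list, 3 of 8 measured genes were lower (Fos, Egr1 and Zfp36) and none was higher, beside 0.733% lower and 0.471% higher over all genes. Fos and Egr1 reached the minimum of 20 CPM only in dual-enSERT-1, so they could not have been called higher in dual-enSERT-2. Fos, an immediate early transcription factor, had 4.51 CPM in dual-enSERT-2 members, against 25.1 CPM in dual-enSERT-1 members (ratio 0.180), beside a ratio of 0.583 in other barcodes. Egr1 had 9.52 CPM, against 31.1 CPM, and among the 10 lowest genes were also Nr4a1, at 7.02 CPM, against 33.1 CPM, and Ier3. The summed dissociation-stress list was 483 CPM in dual-enSERT-2 members and 805 CPM in dual-enSERT-1 members, against 216 and 337 CPM in other barcodes. Adm, the vascular peptide adrenomedullin, had 4.51 CPM, against 28.0 CPM (ratio 0.161, 0.0724 to 0.312), beside 0.513 in other barcodes, and the hypoxia-induced Ankrd37 had 12.5 CPM, against 55.6 CPM. Mgll (8.02 CPM, against 37.6 CPM) and the mesenchyme-rich genes Runx1t1, Epha7 and Robo2 (42.1 CPM, against 142 CPM), whose ratios in other barcodes were 0.446, 0.330 and 0.304, made up the 10. Of these, Epha7 was higher, not lower, in dual-enSERT-2 members without mesenchyme-marker UMIs (log2 difference 0.25). Among list genes, eGFP was lower in dual-enSERT-2 members (ratio 0.288), as in other barcodes (0.144). The SoxF factor Sox18 had 50.1 CPM, against 115 CPM (ratio 0.435), beside 0.302 in other barcodes, and Kcne3 had 148 CPM, against 307 CPM (ratio 0.482), beside 0.971.

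A few single members carried blood-related RNA. The dual-enSERT-1 member rich in Pf4 held 983 UMIs of 7 platelet genes, including 122 of Ppbp and 37 of Itga2b, together with 50 Cdh5 UMIs, and Scrublet marked it as a doublet. In dual-enSERT-2, 1 member with 10 selecting UMIs and no Emcn held 26 of the 31 UMIs of Runx1, the factor that drives the emergence of blood cells from hemogenic endothelium. The same member held 12 of 62 Kit and 9 of 11 Myb UMIs, and without it the Runx1 level was 2.54 CPM, against 15.5 CPM with it. Ptprc was at 0 in both members. These are single cells and show no class of cell.

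Both reporters had lower pooled levels in endothelium than in mesenchyme-marker barcodes. eGFP had 8.52 CPM (4.96 to 13.6; 17 UMIs in 9 members) in dual-enSERT-2 endothelium, against 27.6 CPM in mesenchyme-marker barcodes, and 29.6 CPM (25.6 to 34.1; 192 UMIs in 103 members) in dual-enSERT-1 endothelium, against 151 CPM. mCherry had 11 CPM (6.91 to 16.7; 22 UMIs in 14 members), against 22.2 CPM, and 8.78 CPM (6.65 to 11.4; 57 UMIs in 39 members), against 56.6 CPM. The endothelial level was thus 30.8% (17.9 to 49.5) and 19.5% (16.9 to 22.5) of the mesenchymal level for eGFP, and 49.7% (31.1 to 75.4) and 15.5% (11.8 to 20.1) for mCherry. Beside these shares, the 5 mesenchyme markers that did not define the mesenchyme barcodes stood at 7.89% (Pdgfra) to 24% (Msx1) of their mesenchymal level in dual-enSERT-2 and at 11.8% (Tbx4) to 17.6% (Msx1) in dual-enSERT-1. In members without any Prrx1, Prrx2 or Twist1 UMI, eGFP was at 11.4 and 25.1 CPM and mCherry at 9.13 and 6.17 CPM.

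The same reporter RNA was found in blood cells. Erythroid-marker barcodes, with at least 20% globin UMIs, had 6.37 and 53.9 CPM of eGFP and 5.58 and 33.9 CPM of mCherry, and macrophage-marker barcodes had 79.8 and 63.9 CPM of eGFP and 79.1 and 125 CPM of mCherry. Single erythroid barcodes weighed on these sums, and without the richest 1 of each library the erythroid levels were 4.45 and 49.2 CPM for eGFP and 3.43 and 21.5 CPM for mCherry. In dual-enSERT-1 both endothelial levels lay below the erythroid levels, with or without that barcode. In dual-enSERT-2 the endothelial interval for eGFP included the erythroid level with that barcode and lay above it without, and the interval for mCherry lay above both. Without the endothelial member richest in each reporter, eGFP stood at 6.93 CPM and mCherry at 9.29 CPM in endothelium. Globin made up a median of 57.7% and 66.8% of UMIs in erythroid-marker barcodes, against 0.238% and 0.0252% in members. This lowers the erythroid CPM of all other genes, and the source of the reporter RNA was not tested in either cell group. Whether endothelial cells expressed a reporter was not tested, and no endothelial expression is read from either library. At 5000 UMIs per cell, eGFP was found in 1.79% and 7.81% of members, against 7.68% and 26.1% of mesenchyme, and mCherry in 8.93% and 4.17%, against 5.39% and 11.4%. Unthinned, the members' shares were 15.5% and 52.3% for eGFP, against 26.7% and 49.8% of mesenchyme. For mCherry the unthinned shares were 24.1% and 19.8% of members, against 19.8% and 23.3% of mesenchyme. Shh itself had 0 and 5 UMIs over all members. The genes that flank the H11 insertion, Eif4enif1 (47.6 and 47.0 CPM) and Drg1 (135 and 110 CPM), were not called in members against other barcodes.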

How the data were processed

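Single cells of 2 embryonic hindlimb libraries were measured with 10x Genomics 3′ v3.1 chemistry after collagenase II digestion, per the labels' protocols. The deposited matrices hold UMI counts per gene and barcode, made by Cell Ranger 7.0.1 per the file headers; by contrast, version 3.1.0 is given, with Seurat 4 and the build mm39, in the submitters' processing notes. They list 8885 barcodes for dual-enSERT-2 and 20508 for dual-enSERT-1, and no deposited annotation of cell types was used. Members held 1995668 and 6489176 UMIs in all, so dual-enSERT-2 values are less precise.

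UMIs were pooled over cells and divided by the pooled total. Log2 differences used a pseudocount of 1 CPM, and genes needed 20 CPM in either group. Intervals (95%) are exact Poisson for levels and exact binomial (Clopper-Pearson) for shares and ratios. A level of 0 was given a floor of 3 UMIs. Named genes are the 24 highest and 10 lowest in members against other barcodes, 12 per direction between sides and 10 per direction between libraries, by size, plus members of the gene lists; 1 gene that the rule names is not reported here. The members and lists were chosen with earlier results of these data known. Doublets were called with Scrublet at an assumed rate of 8% and removed only as an alternative. Gene coordinates are from GENCODE release M39 on GRCm39, in which 56236 of 56982 IDs were found. The contrast code was checked on simulated data. Python 3.11.15, NumPy 2.4.6, SciPy 1.17.1, pandas 2.3.3, Scanpy 1.11.5 and matplotlib 3.10.9 were used.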

Additional observations from a re-analysis of the deposited data

How the results depend on the processing

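No paired analysis was possible because each construct had 1 library, and no library could be left out for the same reason. Over 130 recomputed shares, counts and reporter levels, 22 moved and 0 reversed; of 2084 values of named genes and lists, 259 moved and 4 reversed. Without members holding 3 or more mesenchyme-marker UMIs, the endothelial share of dual-enSERT-1 was 0.804% and the log2 G2/M difference between sides in dual-enSERT-2 was -0.062. With only members lacking such UMIs, chosen as an alternative after seeing the data, the shares were 0.509% and 0.562%, dual-enSERT-1 eGFP was 25.1 CPM and mCherry 6.17 CPM, 101 and 96 genes were higher and lower between libraries, and the log2 differences of G2/M (-0.38, dual-enSERT-2), Prss23 (-0.24, dual-enSERT-2) and Epha7 (0.25) reversed. A level minimum of 50 CPM gave 202 genes lower in members, 63 higher and 12 lower on the arterial side, and 17 higher and 21 lower between libraries. A minimum of 5 CPM gave 836, then 196 and 107, then 151 and 244. A pseudocount of 5 CPM gave 26 genes lower on the arterial side, the upper and lower tertile of the index 190 higher and 153 lower, and thinning to 5000 UMIs 320 higher and 315 lower between libraries; the larger counts at 5 CPM and in thinned cells come with fewer UMIs per gene. The share of calls that were higher between libraries was 39.1%, against 52.9% with Scrublet doublets removed, 50.4% thinned and 51.3% in members without mesenchyme-marker UMIs. Between sides it was 70.7%, against 55.4% for the tertiles and 84.0% at 50 CPM. CPM without globin and mitochondrial genes moved the all-gene median log2 difference of members over other barcodes to -0.07 in dual-enSERT-2 and -0.13 in dual-enSERT-1, and gave 909 higher and 557 lower. The other causes were not tested. Alternatives without the platelet-rich member, without the Prox1-rich member and without Gja4 in the index were also chosen after seeing the data and moved no count of calls by over 1.5 times. Depth limits what 58 members can show: a gene with 0 UMIs there could reach 1.5 CPM.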

Other observations

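The non-coding RNA Xist, which is made from the inactive X chromosome of female cells, had 0 UMIs in the members of both libraries, which allows levels of up to 1.5 CPM in dual-enSERT-2 and 0.462 CPM in dual-enSERT-1. A UMI of a Y-linked gene was found in 51 of 58 and 171 of 197 members. In dual-enSERT-2, 599 kept barcodes nevertheless held at least 3 Xist UMIs, and 573 of these were among the 1773 erythroid-marker barcodes, while no kept barcode of dual-enSERT-1 held as many.

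Of the genes that link endothelium to the vessel's outer cells, the recruiting growth factor Pdgfb had 98.7 and 98.6 CPM in members and was called higher than in other kept barcodes, while the pericyte receptor genes Pdgfrb and Notch3 were called lower.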
